A study of Mus musculus with 6 samples.

Results

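The genes described here encode subunits of the NMDA receptors and the delta receptor GluD1, and their RNA was sequenced from sorted mouse olfactory bulb cells with and without deletion of Sox9. The 8 genes Grin1, Grin2a, Grin2b, Grin2c, Grin2d, Grin3a, Grin3b and Grid1 were chosen by symbol from the 24421 genes listed in each of the 6 libraries. All 6 mice were adult males that had received AAV-GFAP-iCre-P2a-TurboRFP in the olfactory bulb, a virus in which the GFAP promoter drives both the recombinase Cre and the red fluorescent protein TurboRFP, so that control cells had also been exposed to Cre. The 3 Sox9 KO mice were Sox9fl/fl. The 3 control mice were C57BL/6J, given as Sox9+/+ in the methods, and the strain label reads C57BL/6 for both groups. Cells with TurboRFP were sorted 4 weeks after injection straight into lysis buffer, so that purity was judged from marker genes in the sequencing and not after the sort, and each library came from 1 mouse.

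NMDA receptors are cation channels made of 4 subunits that open when glutamate and a co-agonist, glycine or D-serine, are bound together. GluN1, from Grin1, is present in every NMDA receptor and binds the co-agonist, the GluN2 subunits bind glutamate and set the kinetics of the channel, and the GluN3 subunits bind glycine and lower calcium entry. Delta receptors belong to the same superfamily by sequence but act mainly as synaptic organizers that bind cerebellins. NMDA receptors are best known from neurons, and in the olfactory bulb they serve the dendrodendritic synapses between mitral cells and granule cells. Grin2c is also known as a transcript of astrocytes.

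The reads on genes ranged from 18242129 to 86906527 per library. The deposited values, called normalized counts here, were reads over the size factor of the library, and 1 read was worth between 0.395 and 1.58 normalized counts. Sox9 itself averaged 5556 ± 881 normalized counts in control mice against 58.2 ± 5.88 in KO mice (SD, n = 3 each), or −6.54 as log2 fold change (standard error, SE, 0.15, limma adjusted p = 2.5e-09). The summed level of 12 astrocyte markers lay between 305120 and 347450 normalized counts in the controls and between 29250 and 32645 in KO, and all 12 genes were called lower. The summed level of 12 markers of microglia and macrophages lay between 209190 and 234960 in the controls and between 816780 and 934530 in KO, with 11 of 12 called higher and Fcrls not called. In KO the microglia and macrophage markers thus summed above the astrocyte markers, against the label of olfactory bulb astrocytes that both groups carry. Called means an adjusted p of 0.05 or less and at least a 1.5-fold change in limma, run on log2(normalized count + 1) over the 18413 genes with a mean of at least 1. By this rule 5299 genes were lower and 4090 higher in KO, and the split moved with the scaling, to 6597 lower and 2630 higher with every library brought to 1 total without the ribosomal precursor Rn45s and to 4117 lower and 5342 higher after quantile normalization.

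All 8 subunit genes were above 0 in every library and were tested. In KO, 7 of the 8 were called lower, 0 were called higher, and Grin3b was not called. Among all genes tested 28.8% were called lower and 22.2% higher. The same 7 genes had every KO library below every control, a pattern seen in 34.7% of all genes, and Grin3b had every KO library above every control, as 32.4% of all genes did. The median log2 fold change over the 8 genes was −2.68, against −0.07 over all genes tested. The fall was unequal across the family, from 2.31-fold for Grin2d to 41.6-fold for Grin2c as ratios of mean normalized counts. KO replicate 2 was the highest of the 3 KO libraries for all 8 genes, and the share of all tested genes with this pattern is not given here. In these sorted bulk samples, fewer cells of a type and less RNA per cell cannot be told apart.

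**Figure D1:**
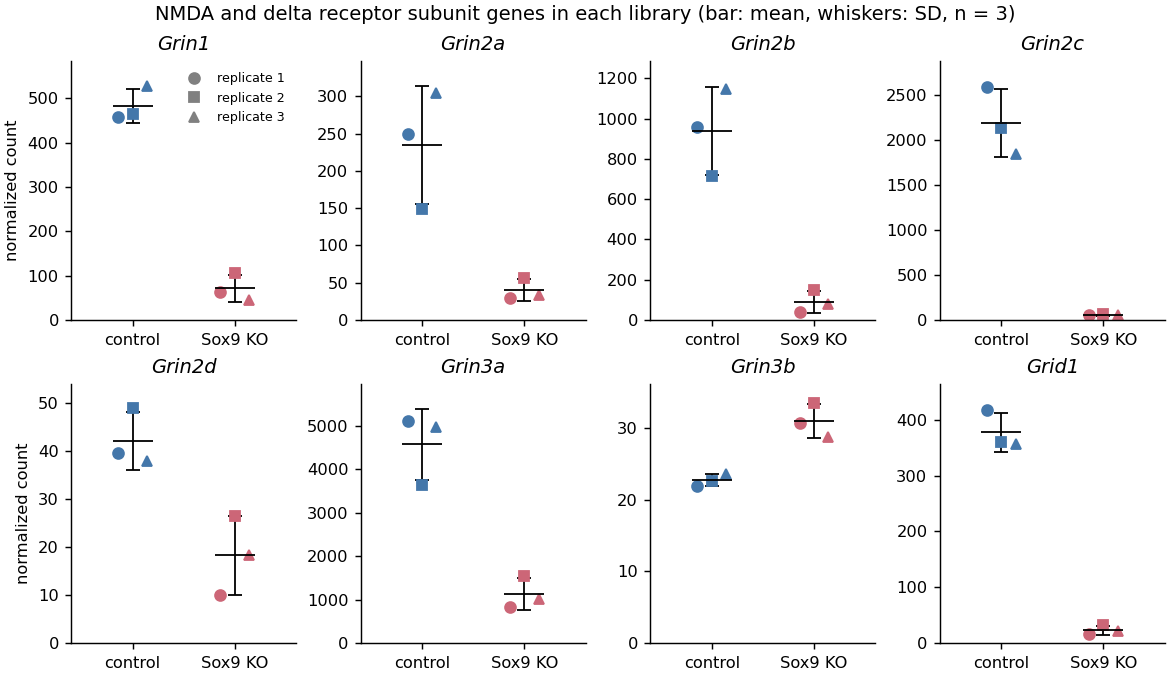
Normalized counts (linear axis from 0, own scale in each panel) of the 8 subunit genes in the 3 control and the 3 Sox9 KO libraries, with 1 point per mouse, the mean as a bar and the SD as whiskers (n = 3). In 7 panels the KO points lie under all control points, and for Grin3b they lie above them, at 28.9 to 33.6 against 21.9 to 23.6 normalized counts.

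Grin1, which encodes the obligatory GluN1 subunit, is placed by the GENCODE annotation of mm10 at chromosome 2, 25291181 to 25319187, minus strand. Across replicates 1, 2 and 3 it reached 457, 464 and 526 normalized counts among the controls against 63.5, 105 and 45.6 among the Sox9 KO mice. The controls lay close together, the KO libraries spread more, with replicate 2 the highest, and the groups were far apart. The means were 483 ± 38.1 and 71.5 ± 30.7 (SD, n = 3 each), and the log2 fold change was −2.82 (SE 0.28, limma adjusted p = 1.0e-05). Of the exons of Grin1, 13.5% overlap those of Grin1os, a transcript annotated on the opposite strand. Grin1os averaged 16.8 ± 5.10 normalized counts in control mice against 0.638 ± 0.788 in KO mice (SD, n = 3 each), so that its reads were few beside those of Grin1. The sources used here do not give whether reads were counted by strand, and without strand the reads of the overlap cannot be told apart.

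Of the GluN2 genes, Grin2c, which encodes GluN2C, a subunit whose receptors are weakly blocked by magnesium, changed most. It lies on chromosome 11 from 115249169 to 115267243 on the minus strand. In replicates 1, 2 and 3 it stood at 2585, 2133 and 1844 normalized counts among the controls against 49.6, 59.6 and 48.6 among the Sox9 KO mice. All KO libraries were low and near each other, with a mean of 52.6 ± 6.08 against 2187 ± 373 in control (SD, n = 3 each). The log2 fold change of Grin2c was −5.34 (SE 0.17, limma adjusted p = 8.5e-09).

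Grin2b, which encodes GluN2B, the subunit that prevails early in development, lies on chromosome 6 from 135713233 to 136173511 on the minus strand. Replicates 1, 2 and 3 gave 959, 714 and 1147 normalized counts among the controls against 36.7, 146 and 79.0 among the Sox9 KO mice. The KO values spread widely between replicates 1 and 2, and yet the highest of them was far under the lowest control. The means were 940 ± 218 and 87.4 ± 55.3 (SD, n = 3 each), and the log2 fold change was −3.60 (SE 0.41, limma adjusted p = 2.6e-05). Grin2a, which encodes GluN2A, the subunit that gains weight as neurons mature, lies on chromosome 16 from 9567898 to 9995560 on the minus strand. Its replicates 1, 2 and 3 held 250, 149 and 304 normalized counts among the controls against 28.8, 56.5 and 33.4 among the Sox9 KO mice. Control replicate 2 was the lowest control and KO replicate 2 the highest KO library, and the groups did not overlap. The log2 fold change of Grin2a was −2.53 (SE 0.35, limma adjusted p = 0.000106), from a mean of 234 ± 79.0 to one of 39.6 ± 14.8 (SD, n = 3 each).

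Grin2d, which encodes GluN2D, a subunit of slowly closing channels known from interneurons, lies on chromosome 7 from 45831883 to 45878378 on the minus strand. The values of replicates 1, 2 and 3 were 39.5, 48.9 and 37.8 normalized counts for control and 9.93, 26.4 and 18.2 for KO, from 10 to 71 reads per library. The groups did not overlap, with KO replicate 2 the nearest to the controls. The means were 42.0 ± 5.96 and 18.2 ± 8.26 (SD, n = 3 each), and the log2 fold change was −1.25 (SE 0.43, 95% confidence interval −2.22 to −0.29, limma adjusted p = 0.0276). This call was near the threshold: on the recovered reads, edgeR gave an adjusted p of 0.0506 and DESeq2 one of 0.0454. With any 1 library other than KO replicate 2 left out, limma gave a log2 fold change between −1.32 and −0.90 and an adjusted p between 0.0577 and 0.0950. After quantile normalization the log2 fold change of Grin2d was −0.42 (limma adjusted p = 0.389).

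The GluN3 genes moved differently from each other. Grin3a, which encodes GluN3A, known for its high level in young neurons, lies on chromosome 4 from 49661611 to 49845744 on the minus strand. By replicate, from 1 to 3, it measured 5109, 3631 and 4973 normalized counts among the controls against 829, 1542 and 1006 among the Sox9 KO mice. Each KO library was under each control. The means were 4571 ± 817 and 1126 ± 371 (SD, n = 3 each), and the log2 fold change was −2.05 (SE 0.21, limma adjusted p = 1.2e-05).

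Grin3b, which encodes GluN3B, a subunit known from motor neurons, lies on chromosome 10 from 79970715 to 79977190 on the plus strand. For replicates 1, 2 and 3 the values were 21.9, 22.7 and 23.6 normalized counts among the controls against 30.8, 33.6 and 28.9 among the Sox9 KO mice, from 15 to 85 reads per library. All KO libraries were slightly above all controls. The means were 22.8 ± 0.863 and 31.1 ± 2.36 (SD, n = 3 each), and the log2 fold change of 0.43 did not pass (SE 0.35, 95% confidence interval −0.35 to 1.22, limma adjusted p = 0.314). After quantile normalization, which moved the median of all genes up to 0.19, the log2 fold change of Grin3b was 1.29 and it was called higher (limma adjusted p = 0.0082), whereas it was 0.12 with libraries scaled to the same total without Rn45s. Of the exons of Grin3b, 32.1% overlap those of Tmem259 on the opposite strand. Tmem259 averaged 662 ± 78.5 normalized counts in control mice against 739 ± 76.1 in KO mice (SD, n = 3 each), far more reads than Grin3b had, and reads of the overlap cannot be assigned to either gene without strand.

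Grid1, which encodes GluD1, lies on chromosome 14 from 34820108 to 35583379 on the plus strand. Replicates 1, 2 and 3 of each group held 418, 360 and 356 normalized counts among the controls against 15.9, 32.0 and 21.3 among the Sox9 KO mice. The controls differed little from each other and every KO library was far below them. The means were 378 ± 34.6 and 23.0 ± 8.19 (SD, n = 3 each), and the log2 fold change was −4.03 (SE 0.29, limma adjusted p = 9.4e-07), the second in size after Grin2c.

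**Figure D2:**
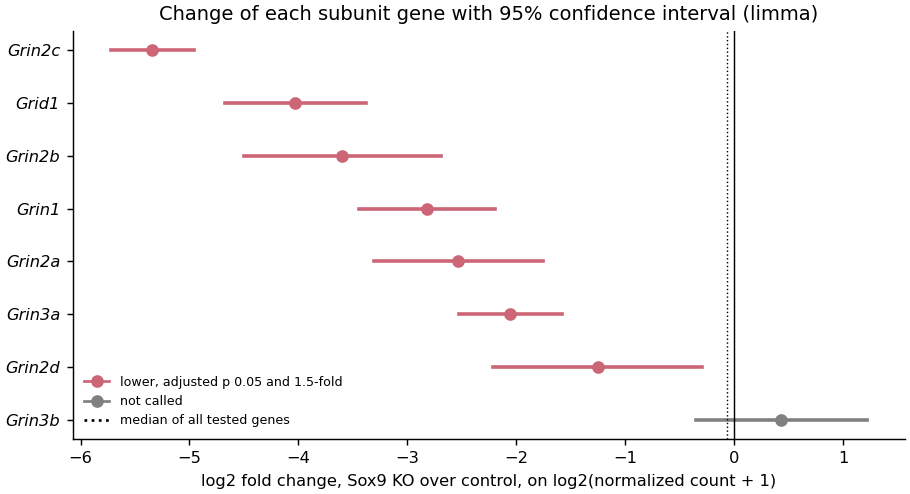
Log2 fold change of Sox9 KO over control for each subunit gene, on log2(normalized count + 1), with its 95% confidence interval from limma; the dotted line is the median of all tested genes, −0.07. The interval of Grin2c, around −5.34, lies apart from the others, that of Grin2d ends at −0.29, and that of Grin3b, around 0.43, spans 0.

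The sequences before the gene are shown for Grin2c, which fell most, and for the obligatory subunit gene Grin1. RefSeq start-site windows on GRCm38.p6 were at hand for these genes, Grin2d and Grin3b, 4 of the 8 in all. Each window holds the 250 bases before 1 transcript start. For Grin1 the whole window lies outside the RefSeq gene, for Grin2c 54 bases of it lie inside, and those of Grin2d and Grin3b lie wholly inside, so only the bases outside the gene are printed. The lines run 5′ to 3′ on the strand of the gene, from chr2:25319188-25319437 (minus) for Grin1 and chr11:115267298-115267493 (minus) for Grin2c. Capitals mark ACAATG or ACAAAG on either strand, forms of the core letters that SOX proteins are known to bind.
Grin1: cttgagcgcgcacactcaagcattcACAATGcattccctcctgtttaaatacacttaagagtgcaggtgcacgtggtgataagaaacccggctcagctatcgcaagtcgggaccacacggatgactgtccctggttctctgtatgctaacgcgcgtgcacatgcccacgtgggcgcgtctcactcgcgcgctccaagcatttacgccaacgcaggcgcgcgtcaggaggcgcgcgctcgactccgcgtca
Grin2c: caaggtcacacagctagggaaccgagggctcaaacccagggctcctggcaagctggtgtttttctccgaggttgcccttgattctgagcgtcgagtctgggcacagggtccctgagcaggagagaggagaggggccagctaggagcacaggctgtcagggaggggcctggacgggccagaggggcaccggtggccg
Grin1 held 1 ACAATG, which begins 225 bases before the start, and no ACAAAG. The 250-base windows of Grin2c, Grin3b and Grin2d held neither set of letters. Of 32851 RefSeq windows of the same kind, 10.7% held ACAATG, 16.5% held ACAAAG and 25.2% held at least 1 of them, so that a match in 1 of 4 windows is near the background. The windows of Grin1 and Grin2c were rich in CG dinucleotides, with 27 and 15, against 9 for Grin2d, 2 for Grin3b and a median of 6 over all windows. A match is a description of letters, and its absence covers this window alone.

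Levels of different genes were compared per kilobase of annotated exon. In the controls, Grin2c had 434 ± 74.1 and Grin3a 372 ± 66.6 normalized counts per kilobase (SD, n = 3 each), and these leading genes did not differ beyond their spread. Then came Grid1 with 63.4 ± 5.81, Grin1 with 49.7 ± 3.93, Grin2b with 37.8 ± 8.76 and Grin2a with 13.1 ± 4.40 normalized counts per kilobase, each separate from its neighbours. Grin3b, with 6.90 ± 0.262, and Grin2d, with 6.32 ± 0.894 normalized counts per kilobase, were lowest and overlapped. In control libraries the transcript of the obligatory subunit was thus well below those of GluN2C and GluN3A. With the length of the longest transcript in place of all exons, Grin3a led Grin2c, still with overlap, and Grin1, at 113 ± 8.92 normalized counts per kilobase, passed Grid1, at 66.1.

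In KO this order changed. Grin3a stood alone at the top with 91.7 ± 30.2 normalized counts per kilobase (SD, n = 3). Grin2c, with 10.4 ± 1.21, overlapped with Grin3b, at 9.42 ± 0.716, and with Grin1, at 7.37 ± 3.16 normalized counts per kilobase. Grid1, Grin2b, Grin2d and Grin2a followed between 3.86 and 2.21 normalized counts per kilobase, and from Grin2c down no gene was separate from the next. With the longest transcript, Grin1 came second in KO, at 16.7 normalized counts per kilobase, and Grin3b was separate from Grid1. Among 17660 tested genes with a known length, 86.4% had a lower level per kilobase than Grin2c in control and 28.7% in KO. For Grin3a these shares were 83.8% and 56.5%.

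The make-up of the GluN2 transcripts, which does not depend on the scaling of the libraries, was computed as the share of each Grin2 gene in their summed level per kilobase of exon. Grin2c made up 89.8%, 90.5% and 84.2% of the sum across control libraries 1, 2 and 3 but 68.3%, 47.6% and 55.4% across KO libraries 1, 2 and 3. It was the main GluN2 transcript in all 6 libraries, with a lower share in every KO library. The mean share of Grin2c was 88.2 ± 3.47% in control mice against 57.1 ± 10.4% in KO mice, a difference of −31.1 percentage points (SD, n = 3 each, exact permutation p = 0.1, two-sided, 0.133 adjusted over the 4 shares), and 0.1 is the smallest p that 3 libraries against 3 can give. The share of Grin2d was 1.30 ± 0.266% in control and 14.0 ± 3.19% in KO, and that of Grin2a 2.70 ± 1.09% and 11.5 ± 1.04%, both higher in every KO library (SD, n = 3 each, exact permutation p = 0.1 for each). In normalized counts both genes were lower in every KO library, with log2 fold changes of −1.25 and −2.53, less than the −5.34 of Grin2c. Grin2d had 10, 67 and 12 reads in KO libraries 1, 2 and 3. For Grin2b the share was 7.84 ± 2.43% against 17.4 ± 6.78% (SD, n = 3 each), and control and KO overlapped (exact permutation p = 0.2). The annotated exons of Grin2b and Grin2a are long for their 3′ UTRs, and with coding length in place of exon length Grin2c had 68.1 ± 7.46% in control and 32.4 ± 10.2% in KO, below the 38.8 ± 10.8% of Grin2b there, while each share kept its direction.

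**Figure D3:**
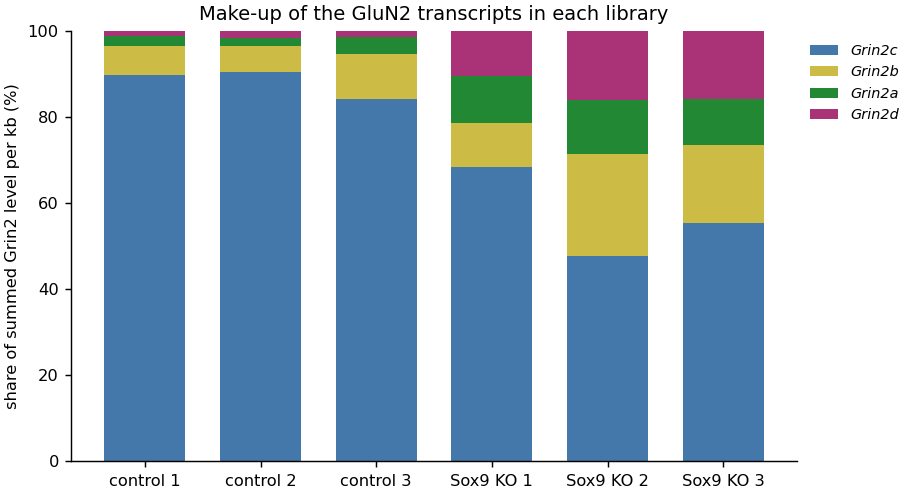
Share (%) of each Grin2 gene in the summed Grin2 level per kilobase of exon, stacked to 100% for each of the 6 libraries. Grin2c fills 84.2% to 90.5% of each control bar and 47.6% to 68.3% of each KO bar, with Grin2d and Grin2a wider in all 3 KO bars. The normalized counts of Grin2d and Grin2a were themselves lower in KO.

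Ratios to Grin1 within a library show the same unequal change without any library scaling. On the log2 scale, Grin2c relative to Grin1 was 2.50, 2.20 and 1.81 among the controls, in the order of their numbers, and −0.35, −0.81 and 0.09 among the KO libraries. The ratio was positive in all controls and lower in every KO library. The difference of Grin2c was −2.52 and that of Grid1 −1.21 (exact permutation p = 0.1 for each, two-sided, 0.14 adjusted over the 7 genes). Grin3b, Grin2d and Grin3a went the other way relative to Grin1, by 3.25, 1.56 and 0.77 (exact permutation p = 0.1 for each), and the KO ratios all lay above the control ratios. Grin1 itself had a log2 fold change of −2.82, so a gene that fell less has an upward ratio. On their own counts Grin2d and Grin3a were called lower, at −1.25 and −2.05, and Grin3b was not called, at 0.43. The differences of Grin2b, −0.78, and Grin2a, 0.28, did not separate the groups (exact permutation p = 0.2 and 0.6).

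Markers of neurons were also lower in the KO libraries, and their levels are given beside the subunit genes. The counts that follow stand against 28.8% of all tested genes called lower and 22.2% called higher. Of 15 pan-neuronal markers 14 were called lower, Elavl4 was not called and 0 were higher, none was at 0 in any library, and their sum lay between 24398 and 29327 normalized counts in the controls and between 4363 and 6854 in KO. KO replicate 2, the highest KO library for all 8 subunit genes, was also the highest for 13 of the 15 neuron markers. It was the highest for 9 of 13 interneuron, 7 of 9 oligodendrocyte precursor and 6 of 9 mitral and tufted cell markers. For astrocyte markers this held for 5 of 12, for neuroblast markers for 2 of 6 and for oligodendrocyte markers for 0 of 10. The share over all tested genes is not given here, and what these matches mean was not tested. Of the other lists, 12 of 13 olfactory bulb interneuron markers, 6 of 6 neuroblast markers, 5 of 9 mitral and tufted cell markers, 9 of 9 oligodendrocyte precursor markers and 9 of 10 oligodendrocyte markers were called lower, and 0 of each were called higher. The summed level ranged from 10451 to 12662 normalized counts in control and 2224 to 2876 in KO for interneurons, and from 7796 to 10392 and 693 to 969 for neuroblasts. For mitral and tufted cells it ranged from 2574 to 3097 and 770 to 1255. Their defining gene Tbx21 was at 0 in KO replicate 2 but was low throughout and not called. Its groups overlapped, at 2.06 to 25.2 normalized counts in control and 0 to 9.11 in KO. For oligodendrocyte precursors the summed level ranged from 88932 to 96856 and 4379 to 6534. Of this Ptprz1, a gene also known from astrocytes, gave 82648 to 91167 and 3907 to 5576. Oligodendrocyte markers summed to between 38427 and 69546 normalized counts in control and between 16183 and 26412 in KO. Of 10 olfactory ensheathing cell markers 8 were called lower (sums from 49022 to 61004 and from 14592 to 24961), and of 7 mural markers Pdgfrb, Rgs5, Vtn and Kcnj8, the last at 0 in KO replicate 2 (sums from 2488 to 2911 and from 791 to 1224). Of 8 endothelial markers Cldn5, Tek, Slco1a4 and Emcn were called lower and Flt1 and Kdr higher, and their sums overlapped, from 2012 to 3354 in control and from 1825 to 2354 in KO. Apart from the ratios that follow, the part of these cells in the subunit values was not tested.

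Relative to the summed neuron markers within each library, the log2 difference of KO from control was −0.45 for Grin1, −1.23 for Grin2b, −1.66 for Grid1 and −2.97 for Grin2c, with every KO library below every control (exact permutation p = 0.1 for each, two-sided, 0.129 adjusted over the 18 ratios tested). Grin2a, with a difference of −0.17, and Grin3a, with 0.31, overlapped between the groups (exact permutation p = 0.6 and 0.2). The differences of Grin2d, 1.11, and Grin3b, 2.80, were upward in every KO library (exact permutation p = 0.1 for each). The neuron marker sum itself had a log2 difference of −2.37. On its own counts Grin3b was not called (log2 fold change 0.43), and Grin2d was called lower. The 8 genes summed had a difference of −0.29, with every KO library below every control (exact permutation p = 0.1), and −0.58 with the mean of log2 marker values in place of their sum. Grin3a made up most of that sum in KO. With that mean the difference of Grin2d was 0.83 and its groups no longer separated (exact permutation p = 0.2).

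Relative to the summed astrocyte markers, Grin2c and Grid1 were again lower in every KO library, with log2 differences of −1.95 and −0.63 (exact permutation p = 0.1 for each, two-sided). For Grid1 this did not hold with the mean of log2 marker values, where the difference was −0.18 (exact permutation p = 0.5). Grin2a, Grin3a, Grin2d and Grin3b had differences of 0.86, 1.34, 2.14 and 3.83, upward in every KO library (exact permutation p = 0.1 for each). Grin1, with 0.58, and Grin2b, with −0.20, overlapped between the groups (exact permutation p = 0.2 and 0.9), and the sign for Grin2b turned when 1 library, control replicate 3 or KO replicate 1, was left out (0.01 and 0.26). The 8 genes summed had a difference of 0.74, with every KO library above every control (exact permutation p = 0.1). Under both ways of combining the markers, and for both lists, every KO library lay below every control for Grin2c and above every control for Grin3b. Over astrocyte markers the difference of Grin2c was −1.49 with the mean of log2 marker values, in place of −1.95. The 12 astrocyte markers fell unequally, by log2 values between −5.25, for Fgfr3, and −2.72. Grin2c, at −5.34, was close to Fgfr3, so the size of its difference depends on which markers weigh most. Ratios to single markers were not tested. On its own counts Grin3b was not called, with 15 to 85 reads per library and a log2 fold change of 0.43. The marker sums had log2 differences of −2.37 for neurons and −3.40 for astrocytes, so a gene without change has an upward ratio.

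**Figure D4:**
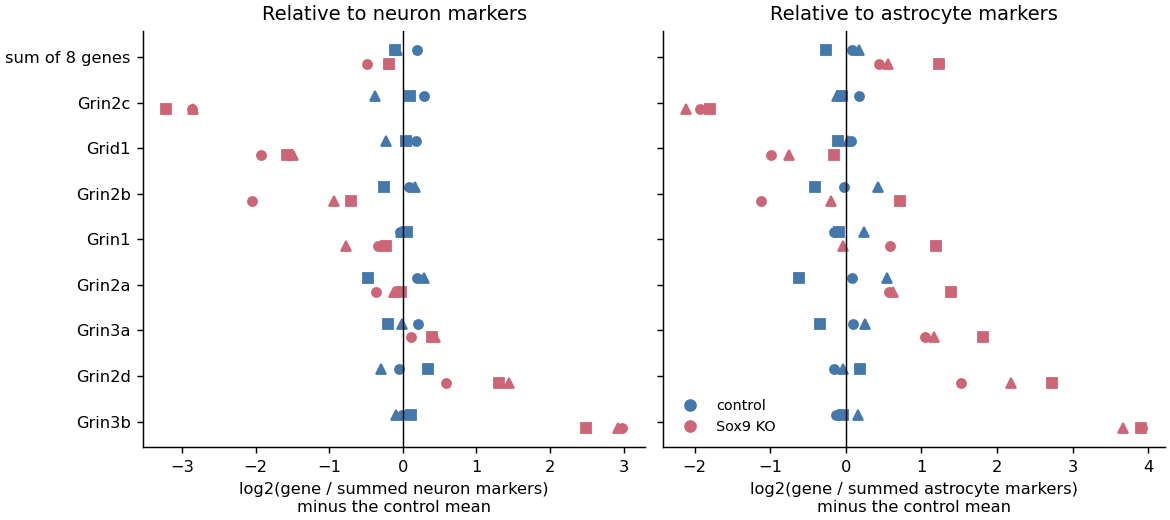
Log2 ratio of each subunit gene, and of their sum, to the summed neuron markers (left) and the summed astrocyte markers (right) in each library, set to 0 at the control mean; blue points are control, red points Sox9 KO, and circles, squares and triangles are replicates 1, 2 and 3. Grin2c is displaced left in both panels, by −2.97 and −1.95 on average, and Grin3b right, by 2.80 and 3.83. The marker sums themselves had log2 differences of −2.37 and −3.40, and Grin3b was not called on its own counts (log2 fold change 0.43).

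Genes around the receptors were read from 4 lists. Over all genes tested, 28.8% were called lower and 22.2% higher. Among 9 partners of delta receptors, 6 were called lower, 0 higher and 3 not called, with a median log2 fold change of −1.99. Cbln2, a cerebellin that bridges delta receptors to presynaptic neurexins, averaged 112 ± 15.6 normalized counts in control mice against 32.1 ± 17.8 in KO mice (SD, n = 3 each, log2 fold change −1.88, limma adjusted p = 0.00157). Cbln3, C1ql2 and C1ql3 were the genes not called, with log2 fold changes of −0.48, −1.81 and −0.33.

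The co-agonist list holds enzymes and carriers of D-serine and glycine, and 12 of its 13 genes were tested, since the glycine transporter gene Slc6a5 was listed at 0 in every library. Of these, 9 were called lower and 1 higher, with a median log2 fold change of −2.10, beside 28.8% and 22.2% of all tested genes. Slc1a4, a carrier of neutral amino acids including serine, fell from 9175 ± 1113 to 479 ± 57.0 normalized counts, and Slc6a9, the glial glycine transporter GlyT1, from 7263 ± 1169 to 430 ± 18.8 (SD, n = 3 each, log2 fold changes −4.26 and −4.06, limma adjusted p = 4.9e-09 and 6.3e-09). Psat1, an enzyme of serine synthesis, fell by 1.21 on the log2 scale (limma adjusted p = 4.4e-05). The gene called higher was Shmt1, which interconverts serine and glycine, with a log2 fold change of 0.86 (limma adjusted p = 0.00671). Slc1a5 and Shmt2 were not called, at 0.38 and −0.15. The gene for serine racemase, Srr, which makes D-serine, fell from 880 ± 48.6 to 297 ± 27.3 normalized counts (n = 3 each, SD; log2 fold change −1.56, limma adjusted p = 2.5e-06). Slc7a10, a carrier of D-serine and glycine, fell by 6.84 on the log2 scale (limma adjusted p = 1.8e-08), the deepest fall in this list, and both Srr and Slc7a10 were named after their values were seen.

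Of 22 scaffold and anchoring genes, 16 were called lower, 0 higher and 6 not called, with a median log2 fold change of −2.13. Among all tested genes 28.8% were called lower and 22.2% higher. Dlgap1, a scaffold linked to PSD-95, fell from 4893 ± 447 to 397 ± 37.1 normalized counts (n = 3 each, SD; log2 fold change −3.62, limma adjusted p = 8.3e-09). Cask, a scaffold that carries NMDA receptors with its partners of the Lin7 family, had a log2 fold change of −0.45, which passed the adjusted p but not the fold (limma adjusted p = 0.00143), and Lin7c had one of −0.10 (limma adjusted p = 0.39).

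Of 22 kinases, phosphatases and calcium effectors, 11 were called lower, 3 higher and 8 not called, with a median log2 fold change of −0.80. Among all tested genes 28.8% were called lower and 22.2% higher, so the higher calls of this list did not exceed that share. Calm2, which encodes a calcium-binding protein, was called higher, with a log2 fold change of 0.78 (limma adjusted p = 0.000461). Ppp3ca, the catalytic subunit of calcineurin, was at 0.34 and not called. The other genes called higher were Creb1, at 1.00, and Rasgrf2, at 0.77 on the log2 scale. With libraries scaled to the same total, with or without Rn45s, 1 gene of this list was called higher, and with edgeR 5 were. Over all genes tested, 2936 and 2630 were called higher with these scalings, and 4340 with edgeR.

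**Figure D5:**
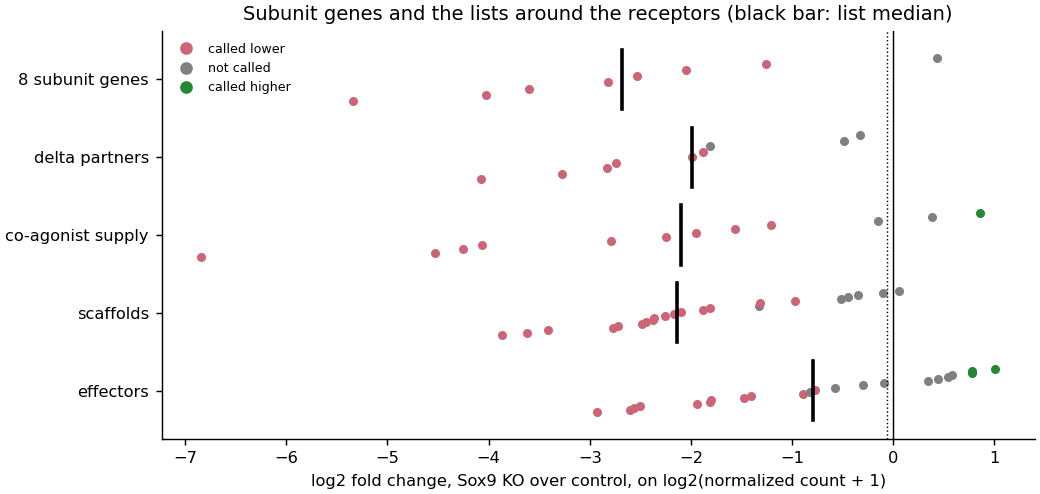
Log2 fold change of Sox9 KO over control for the 8 subunit genes and the genes of the 4 lists around them, with 1 point per gene, colour for the call and a black bar for the list median; the dotted line is the median of all genes tested. The medians run from −2.68 for the subunit genes through −1.99, −2.10 and −2.13 to −0.80 for the effectors, whose points lie on both sides of 0.

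For Grin3a, Grin2c and Grid1, the 3 subunit genes with the highest mean level per kilobase of all exons over the 6 libraries, the tested genes with the most similar pattern were found by the root mean square difference of log2(normalized count + 1), each gene centred on its own mean, over the 6 libraries. Nearest to Grin3a were Grb10, Sncb and Adamtsl1, at 0.087, 0.093 and 0.104, and 77 genes lay within 0.2. Nearest to Grin2c were Fgfr3, which is on the astrocyte marker list, Micall2 and Lrtm2, at 0.134, 0.134 and 0.183, and only these 3 genes lay within 0.2. Their log2 fold changes, −5.25, −5.20 and −5.44, were close to the −5.34 of Grin2c. Nearest to Grid1 were Adcy2, Lsamp and Celsr2, at 0.060, 0.061 and 0.076, and 61 genes lay within 0.2. These distances describe 6 libraries in 2 groups, and most of each pattern is the difference between KO and control.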

How the data were processed

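RNA-seq was done on total RNA of sorted cells from 3 control and 3 Sox9 KO mice, with libraries made by the Trio RNA-Seq System. Per the methods and the submitters' processing notes, the authors mapped reads to mm10 with STAR 2.5.0a, obtained gene counts with the packages GenomicFeatures and GenomicAlignments, and applied DESeq2 1.20.0 for normalization. The sources used here do not give the annotation or the strand setting of the counting. The deposited signal values are named RPM, but 100% of them in each library were whole multiples of 1 step within 0.01 read, as read counts are after division by a size factor. A test for values in RPM had been planned, and its pseudocount and filter were kept. No column was left unused.

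Groups and replicate numbers came from the sample titles. Genes with a mean of at least 1 (18413 of 24421) were compared by limma 3.58.1 (R 4.3.3) using log2(normalized count + 1) values, a variance trend, two-sided p-values and Benjamini-Hochberg adjustment over all genes tested. On this scale the change of low genes is understated. The recovered reads were tested with edgeR 4.0.16 and DESeq2 1.42.0. Shares and ratios were tested by exact permutation over libraries. Each p-value is the share of all relabelings of the libraries with a mean difference at least as large. Exon lengths and positions came from GENCODE M21 (23350 symbols matched, 95.6%). In each list the 3 genes with the highest mean are named, besides the subunit genes, Sox9 and the nearest genes in pattern; others named are the remaining genes of a small count and Srr, Slc7a10, Grin1os and Tmem259, all chosen after their values were seen. Of the marker lists, only genes that a count or a 0 singles out are named. Members and lists were chosen with earlier results of these data known. The values of some single genes that this rule would name are not reported here. The tests were checked on simulated data in which few genes changed, as many up as down. That check does not cover data where as many genes differ as here. Replicates of a group differed by more than sampling noise (chi-square per gene from 19.4 to 67.4). Only the RNA-seq was analysed here.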

Additional observations from a re-analysis of the deposited data

How the results depend on the processing

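The log2 fold changes of the 8 subunit genes and Sox9, the counts and the ratios were recomputed under another pseudocount, filter, scaling, variance model, tool or length, with a replicate block, and without each library in turn. Of 396 values of fold changes and counts, 378 kept their direction and their side of the threshold, or stayed within 1.5 times for a count. Of 207 values of shares and ratios, 204 kept their direction, and their exact p could not pass 0.05 under any alternative. With the mean of log2 marker values the difference of Grid1 relative to astrocyte markers was −0.18 (exact permutation p = 0.5) and that of Grin2d relative to neuron markers 0.83 (exact permutation p = 0.2), in place of −0.63 and 1.11. The calls of Grin1, Grin2a, Grin2b, Grin2c, Grin3a and Grid1 held under every alternative. That of Grin2d was lost after quantile normalization (log2 fold change −0.42), with edgeR (−1.12, adjusted p = 0.0506) and without any 1 library other than KO replicate 2 (without 1 library in turn, −1.56 to −0.90), and the count of subunit genes called lower was then 6. Of all genes tested, 4117, 5000 and between 4929 and 5127 were called lower under these settings. After quantile normalization Grin3b passed, at 1.29 (limma adjusted p = 0.0082), so that 1 subunit gene was called higher, beside 5342 of all genes tested. Without the variance trend the adjusted p of Grin3b was 0.0178 in limma, with its change still under 1.5-fold. Relative to astrocyte markers, the difference of Grin2b, −0.20, turned to 0.26 with the mean of log2 marker values, and without 1 library in turn it ranged from −0.66 to 0.26, above 0 without control replicate 3 (0.01) and without KO replicate 1 (0.26).

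The median log2 fold change of all genes, −0.07, moved to −0.29 with libraries scaled to the same total, to −0.37 without Rn45s and to 0.19 after quantile normalization. Without Rn45s, 2630 of all genes were called higher in place of 4090, and 0 co-agonist genes in place of 1. Quantile normalization gave 2 co-agonist genes, beside 5342 of all genes. Among the effectors, 1 gene was called higher with libraries scaled to the same total, 1 without Rn45s and 5 with edgeR, in place of 3. Over all genes tested these settings called 2936, 2630 and 4340 higher. The coding length was chosen after seeing the data. The cause of these changes was not tested.

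The sources used here do not give whether same-numbered libraries were handled together. Deviations of same-numbered libraries correlated at −0.05, −0.01 and −0.01, and those of differently numbered ones between −0.02 and 0.03. Such values show no shared pattern by number but cannot exclude shared handling. With the replicate block 7 subunit genes were called lower and 0 higher, beside 5227 and 4048 of the 18413 genes tested. The adjusted p of Grin2d was then 0.0319 in limma, and no call of a subunit gene changed. Depth is low for Grin2d, Grid1 and Grin3b, with as few as 10, 14 and 15 reads in a library, and 3 libraries against 3 cannot give an exact p under 0.1.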
